A study of Mus musculus with 9 samples.

Results

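The 10 genes described here, Egr1, Egr2, Egr3, Zfp36, Ier2, Ier3, Dusp1, Errfi1, Plk2 and Arc, are EGR transcription factors, immediate early genes and genes of negative feedback, out of 17914 genes named on the array. They were selected on measured values of these arrays: the level on one dox array against the other, and the level on arrays with oestradiol against arrays without it. Each was read by every probe that carried its symbol, which came to 1 probe a gene. Of the 10, 9 were above background on enough arrays to enter the tests among 9490 genes, and Ier2 was not. For contrasts that took part in the choice, values, intervals and counts of calls from the fit over all genes are descriptions from which nothing is read about the members. Member p-values are given only for dox plus E2 against E2, a difference not itself used in the choice, although its arrays were.

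Messenger RNA was measured on 9 Illumina mouse bead arrays. The cells were primary osteoblasts from the skull roof of newborn mice (NeMCO cells), and in all 4 groups they had been transduced with a lentiviral construct in which doxycycline (dox) switches on RUNX2, the master regulator of osteoblasts. Culture medium was phenol red free with 20% charcoal-stripped serum, so that it held little steroid hormone of its own, and treatment lasted 48 h. The 4 groups comprised dox at 500 ng/ml plus oestradiol (E2) at 10 nM (n = 2, replicates 2 and 3), E2 at 10 nM (n = 3), dox at 500 ng/ml (n = 2) and vehicle (n = 2). Arrays with dox plus E2 or E2 lay on slide 2 and arrays with dox or vehicle on slide 1, so slide and E2 cannot be told apart, while each dox effect lies within a slide. The labels name no separate cultures or animals, so the spread between replicates may be technical. No group without the virus was among the 9 arrays, and what dox does apart from RUNX2 was not tested.

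Immediate early genes are switched on within minutes of a growth factor, serum or stress signal, without new protein synthesis, mostly through the ERK kinase cascade and the serum response factor. Egr1, Egr2 and Egr3 code for zinc finger transcription factors of one family that carry such signals on to later genes. Others of the class act back on the signal: Dusp1 removes phosphate from MAP kinases, Errfi1 blocks the EGF receptor kinase, and Zfp36 (tristetraprolin) sends short-lived mRNAs to decay. Their mRNAs are mostly short-lived, so their levels change quickly with the signal.

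On each array 11554 to 12206 of the 25697 probes exceeded background (detection p under 0.05), and precision is limited by how few arrays there are. Of 10 osteoblast markers on the array 7 passed the detection filter (Sp7, Alpl, Col1a1, Col1a2, Bglap2, Spp1 and Sparc), while Runx2, Ibsp and Dmp1 were not detected. Transgenic RUNX2 was thus not seen in the Runx2 probes, while other genes passed the test with dox within slide 2: Gzmd, a granzyme, rose by 1.82 ± 0.15 (log2 change ± SE), the osteoblast factor Sp7 by 0.72 ± 0.11 and the alkaline phosphatase gene Alpl by 0.99 ± 0.17 in dox plus E2 against E2. Of 6 macrophage markers Lyz2 and Cd14 passed the filter, while the defining Ptprc, Cd68, Csf1r and Adgre1 were not detected. All 4 chondrocyte markers (Col2a1, Acan, Sox9 and Comp) passed, and so did Kdr and Tek of 5 endothelial markers. Which cells these came from was not tested. In such bulk samples fewer cells of a type and less RNA per cell cannot be told apart.

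Levels below are log2 intensities after background correction and quantile normalization; they compare arrays for the same gene, not genes with each other. Egr1 (probe ILMN_2662926), the founding member of the family, was at 11.76 and 11.69 in dox plus E2, 11.75, 11.81 and 11.70 in E2, 13.78 in dox replicate 1, 12.23 in dox replicate 2, and 13.71 and 13.88 in vehicle. All 5 arrays with E2 lay below the 4 others, and dox replicate 2 lay apart from its partner and nearer to the arrays with E2. Median signals per array were higher on slide 2 (157.9 to 172.1) than on slide 1 (131.8 to 149.9), so bead signals before any normalization are not level between slides. For Egr1 they were 3667 and 3878 in dox plus E2, 4063, 3947 and 3539 in E2, 12274 in dox replicate 1 and 3962 in dox replicate 2, and 13279 and 13556 in vehicle.

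Egr2 (ILMN_2623983), also called Krox20, is required for myelination and hindbrain patterning, and in mice its loss also disturbs bone formation. Its levels were 6.18 and 5.70 in dox plus E2, 5.94, 6.11 and 6.34 in E2, 8.70 and 7.48 in dox replicates 1 and 2, and 8.57 and 8.58 in vehicle. The 2 vehicle arrays and dox replicate 1 stood together, dox replicate 2 stood between them and slide 2, and all 5 arrays with E2 were lower still. Egr3 (ILMN_2653543), another member of the family, was above background on 2 of 9 arrays, with levels of 5.66 and 5.46 in dox plus E2, 5.48 to 5.88 in E2, 5.63 and 5.48 in dox and 5.92 and 5.18 in vehicle. Its groups overlapped throughout, and both dox plus E2 arrays and both dox arrays were below background.

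Arc (ILMN_2597827), best known in neurons as a synaptic immediate early gene, was dim, with detection on 5 of 9 arrays. It was at 5.60 and 5.44 in dox plus E2, where both arrays were below background, 5.59, 5.63 and 5.43 in E2, 7.04 and 6.04 in dox replicates 1 and 2, and 6.55 and 7.19 in vehicle. The arrays with E2 again lay below all 4 others, and dox replicate 2 was the lowest of these. Against the mean of the dox arrays, its fall in dox plus E2 is a bound of at least 1.8-fold. The bound sets that mean over the lowest signal above background or the dim probe's own, whichever was higher on each array. With dox arrays at 7.04 and 6.04 it describes their mean and does not hold for dox replicate 2 alone. The comparison also spans slides, and Arc passed the detection filter mainly through arrays without E2.

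Zfp36 (ILMN_3162407) was at 9.27 and 9.25 in dox plus E2, 8.97, 9.15 and 9.13 in E2, 10.62 and 9.19 in dox replicates 1 and 2, and 10.43 and 10.64 in vehicle. Dox replicate 2 lay below both dox plus E2 arrays and above all 3 E2 arrays, so for this gene it sat inside the range of slide 2. Ier3 (ILMN_1216764), also called IEX-1, a stress-induced regulator of cell survival, was at 11.96 and 11.91 in dox plus E2, 11.53, 11.63 and 11.71 in E2, 12.00 and 11.59 in dox replicates 1 and 2, and 12.01 and 11.88 in vehicle. Here the dox plus E2 arrays were at the level of the vehicle arrays, and dox replicate 2 was among the E2 arrays. Ier2 (ILMN_2642705), a nuclear immediate early protein, was below background on all 9 arrays, with a lowest detection p of 0.236, and is not described further.

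Dusp1 (ILMN_2622983), the MAP kinase phosphatase MKP-1, was at 12.96 and 13.23 in dox plus E2, 12.99, 13.03 and 13.08 in E2, 13.59 and 13.21 in dox replicates 1 and 2, and 13.49 and 13.46 in vehicle. Dox replicate 2 fell within the range of the dox plus E2 arrays, so the arrays with and without E2 touched. Errfi1 (ILMN_2714031), the feedback inhibitor of the EGF receptor also called MIG6, was at 10.34 and 10.55 in dox plus E2, 10.54, 10.42 and 10.44 in E2, 11.24 and 11.18 in dox, and 11.34 and 11.38 in vehicle. Its dox arrays stood close together and above every array with E2. Plk2 (ILMN_1260448), a polo-like kinase induced by serum, was at 9.92 and 9.84 in dox plus E2, 9.67, 9.77 and 9.89 in E2, 10.61 and 10.25 in dox replicates 1 and 2, and 10.54 and 10.34 in vehicle. Both dox arrays of Plk2 were above all arrays with E2, with dox replicate 2 a little under the lower vehicle array.

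**Figure D1:**
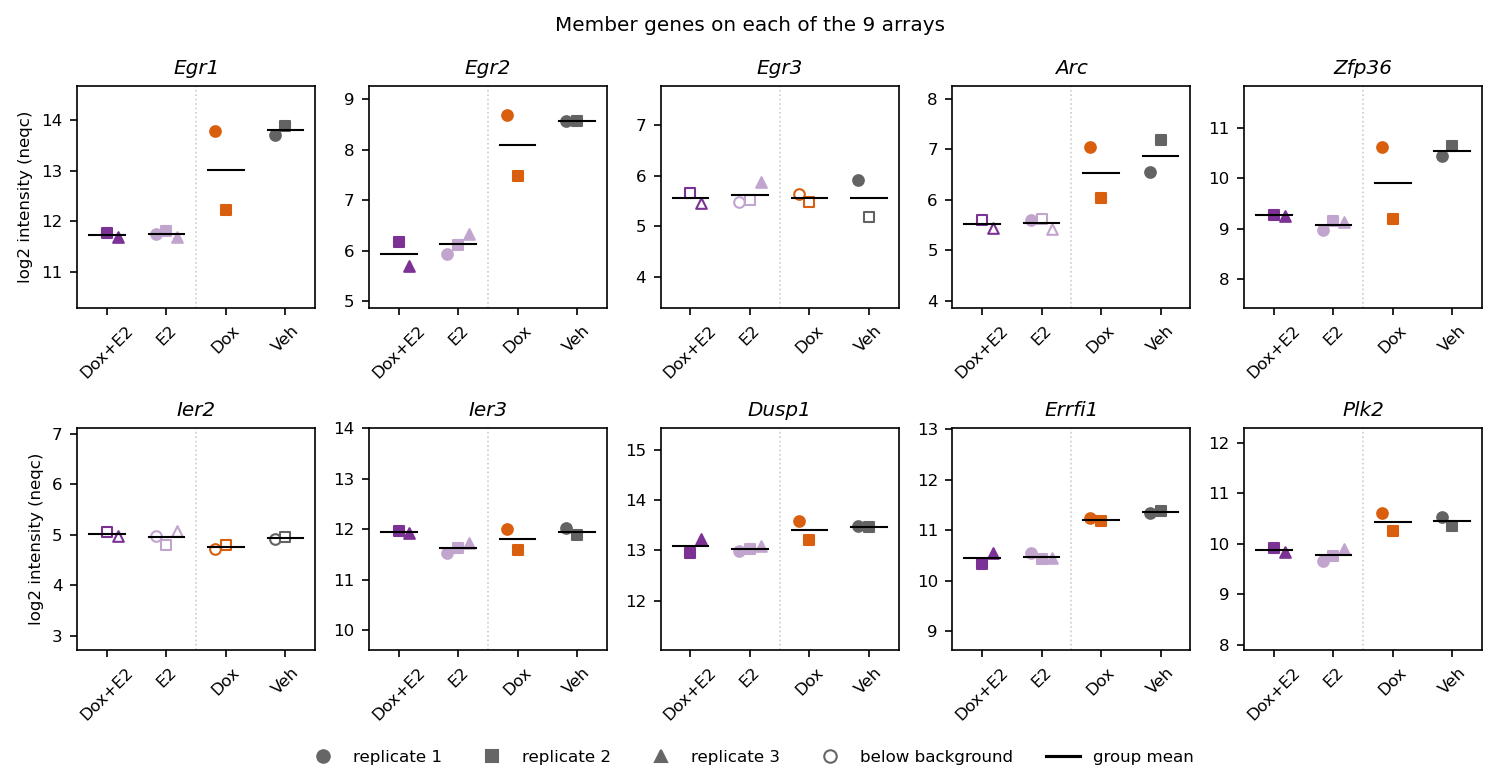
Log2 intensity of each of the 10 genes (1 panel a gene, each axis spanning the same number of log2 units) on the 9 arrays, by group on the x axis; symbols give the replicate, open symbols are below background, short lines are group means and the dotted line parts slide 2 (left) from slide 1 (right). For Egr1, Egr2, Zfp36 and Arc dox replicate 2 lies below replicate 1 by more than for any other member, while for Errfi1 both dox arrays lie together.

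The promoters of 6 of the 10 genes were in the RefSeq promoter table (mouse assembly GRCm38.p6, 250 bases before to 50 after a gene start), and Egr1, Egr3, Ier2 and Arc were not. Promoters are shown because textbook response elements of the class can be read in most of the 6. Whether a motif had a part in the levels on these arrays was not tested. Both strands were searched for the CArG box, the motif of the serum response factor, the full cyclic AMP response element TGACGTCA (CRE), its core TGACG, which lies inside the full element, and the EGR motif GCGNGGGCG. A CArG box was found in Egr2 and Zfp36, 2 of the 6 genes, and in 1.63% of all 32851 windows. For each motif a gene counted by a match in any of its windows, so these shares differ in unit. The box shown, in capitals, begins 72 bases before the start in the Egr2 window chr10:67537619-67537918 (plus strand, 1 of 5 windows of this gene). In the Zfp36 window chr7:28379179-28379478 (minus strand) it begins 58 bases before the start. Other Egr2 windows held a box as well, spelled CCTTTTTTGG in chr10:67537316-67537615.
Egr2: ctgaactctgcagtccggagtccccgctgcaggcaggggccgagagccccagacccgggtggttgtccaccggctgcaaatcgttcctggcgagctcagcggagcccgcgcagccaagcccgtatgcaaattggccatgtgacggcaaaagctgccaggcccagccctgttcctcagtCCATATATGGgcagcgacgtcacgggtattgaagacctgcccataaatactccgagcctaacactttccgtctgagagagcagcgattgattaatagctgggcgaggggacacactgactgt
Zfp36: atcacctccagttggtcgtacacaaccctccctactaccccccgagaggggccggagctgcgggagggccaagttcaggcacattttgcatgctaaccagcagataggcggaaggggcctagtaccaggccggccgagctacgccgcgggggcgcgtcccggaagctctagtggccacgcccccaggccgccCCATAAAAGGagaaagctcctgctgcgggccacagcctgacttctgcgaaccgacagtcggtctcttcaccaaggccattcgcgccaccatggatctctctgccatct
The full CRE was found in Dusp1, Errfi1 and Plk2, 3 of the 6 genes, and in 1.79% of all windows. It begins 143 bases before the start of Dusp1 (chr17:26508423-26508722, minus strand), 51 before that of Errfi1 (chr4:150854820-150855119, plus strand, 1 of 2 windows) and 62 before that of Plk2 (chr13:110394794-110395093, plus strand), again in capitals.
Dusp1: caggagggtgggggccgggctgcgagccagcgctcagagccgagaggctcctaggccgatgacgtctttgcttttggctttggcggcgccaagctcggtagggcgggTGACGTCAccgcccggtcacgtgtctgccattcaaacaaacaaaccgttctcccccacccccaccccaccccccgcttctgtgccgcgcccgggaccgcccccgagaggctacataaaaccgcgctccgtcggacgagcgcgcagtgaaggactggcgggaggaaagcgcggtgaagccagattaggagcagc
Errfi1: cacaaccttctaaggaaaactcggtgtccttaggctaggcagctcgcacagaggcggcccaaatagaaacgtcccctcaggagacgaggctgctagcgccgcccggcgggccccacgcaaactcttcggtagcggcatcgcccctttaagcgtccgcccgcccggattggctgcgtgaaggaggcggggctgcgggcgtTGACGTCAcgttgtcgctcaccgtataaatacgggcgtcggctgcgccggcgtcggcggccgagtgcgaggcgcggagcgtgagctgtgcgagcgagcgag
Plk2: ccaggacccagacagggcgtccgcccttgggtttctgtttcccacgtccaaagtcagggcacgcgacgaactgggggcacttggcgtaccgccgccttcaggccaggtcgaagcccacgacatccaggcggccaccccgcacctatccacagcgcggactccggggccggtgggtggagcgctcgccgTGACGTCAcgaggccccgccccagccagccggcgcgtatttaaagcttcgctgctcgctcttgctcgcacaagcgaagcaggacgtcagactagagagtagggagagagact
The core TGACG was also in the Egr2 window (20.8% of all windows hold it), the EGR motif was in Zfp36 alone of the 6 (5.55% of windows), and the Ier3 window held no match. Such a match is a description of the letters in a window, not of a bound site.

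The gap between the dox arrays was the first measure behind the choice of these genes. Egr1 was 2.94-fold lower on dox replicate 2 than on dox replicate 1, the second-lowest difference among 9490 genes. Zfp36 was 2.70-fold lower (rank 4 from the lowest), Egr2 2.34-fold lower (rank 7) and Arc 2.00-fold lower (rank 25). Rank 1 was Fos, the AP-1 subunit, at 7.44-fold lower. The gaps of the other members were smaller: 1.33-fold for Ier3, 1.30-fold for Dusp1, 1.28-fold for Plk2, 1.12-fold for Egr3 and 1.05-fold for Errfi1. Their gaps lay inside the range of -0.49 to 0.47 that held the middle of all genes, the 5th to the 95th percentile of the dox gap on the log2 scale.

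The median gap over the 9 members was -0.41 in dox, against -0.02 over all genes. In the other groups of 2 it was near 0, at -0.07 in dox plus E2 (replicate 3 minus 2) and 0.02 in vehicle (replicate 2 minus 1). The members with a gap over 0.50 in size outside dox were Arc at 0.64 and Egr3 at -0.74, both in vehicle, and both are dim probes. With the authors' own scaled values the median member gap in dox was -0.40, and with median scaling alone it was -0.39.

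**Figure D2:**
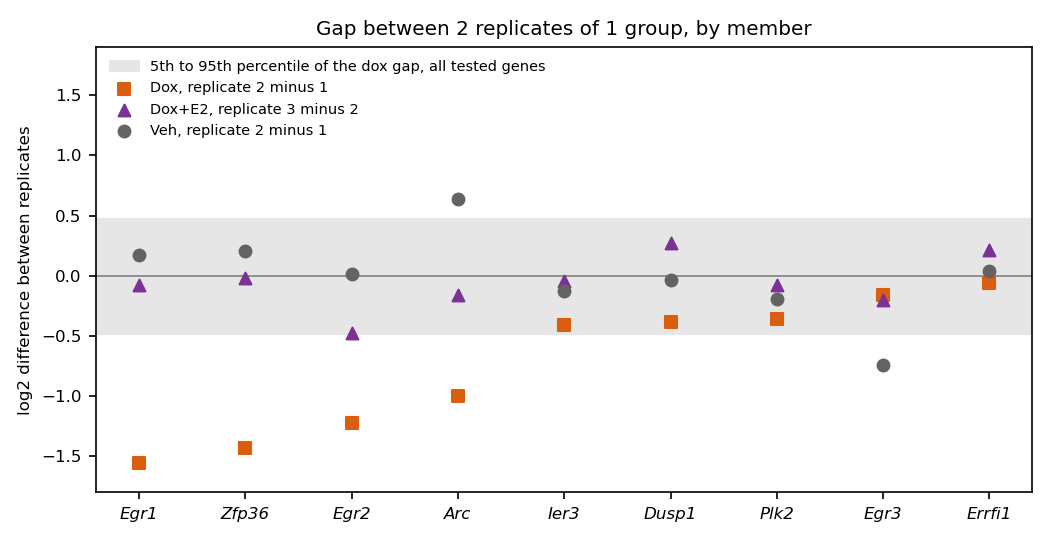
Log2 difference between the 2 replicates of a group (y axis) for the 9 tested genes, in dox, dox plus E2 and vehicle; the grey band spans the 5th to 95th percentile of the dox gap over all 9490 tested genes. In dox, Egr1 (-1.56), Zfp36 (-1.43), Egr2 (-1.23) and Arc (-1.002) lie below the band, and the other 5 lie within it.

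Some other measures were alike on both dox arrays and some were not. Dox replicates 1 and 2 had 11939 and 11900 probes above background and median signals of 132.2 and 131.8. Over the probes that passed the detection filter their correlation was 0.991. It was 0.993 between the dox plus E2 arrays and 0.994 between the vehicle arrays. Dox replicate 1 correlated with the vehicle arrays at 0.992 and 0.993, and dox replicate 2 at 0.991 with each. Genes that passed with dox in the presence of E2 were at similar levels on both: Gzmd was at 8.76 and 8.63, Sp7 at 9.16 and 9.14 and Alpl at 7.91 and 7.94 in dox replicates 1 and 2, against 7.21 and 6.99, 8.55 and 8.48, and 7.42 and 7.07 in vehicle. The summed linear level of 5 heat shock genes was 31110 on dox replicate 2 and 24590 on dox replicate 1, with 27870 to 28170 in dox plus E2, 25490 to 30690 in E2 and 26250 to 27590 in vehicle. All 5 were detected, and dox replicate 2 had the highest sum of the 9 arrays and dox replicate 1 the lowest. The sum of the detected osteoblast markers was 92060 on dox replicate 2 and 96240 on dox replicate 1, and that of detected heart and slow muscle markers was 1658 and 2536. The part of these levels in the gap was not tested.

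The members differed in how far dox replicate 2 had moved on the scale that runs from the vehicle mean (100%) to the E2 mean (0%). It lay at -10.8% for Ier3 and 7.20% for Zfp36, that is at about the level of E2, and at 23.4% for Egr1. Arc at 36.9%, Dusp1 at 39.8% and Egr2 at 55.0% were in between. Plk2 at 71.6% and Errfi1 at 79.4% were nearest to vehicle. Dox replicate 1 was at 86.5% to 126.5% for these 8 genes, and Egr3, with no fall to place it on, was left out.

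Over the 9 members the gap between the dox arrays and the difference of E2 from vehicle, which share no array, had a Pearson correlation of 0.84 across genes, and 8 of the 9 (88.9%) were negative in both. Across 63 tested genes of the same pathways outside the members the correlation was 0.73, and 54.0% were negative in both. Fos, with a gap of -2.90 and E2 minus vehicle at -2.96, lay far from the rest and weighs heavily in that correlation. Across all 9490 genes it was 0.13, with 29.2% negative in both. Genes are not independent replicates, all arrays were normalized together, and both measures chose the members. The lists were drawn up with earlier results of these data known. Errfi1 was the member that departed most, with E2 minus vehicle at -0.89 and a dox gap of -0.06. Outside the members Fosb had this form too, with -1.35 and -0.29.

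**Figure D3:**
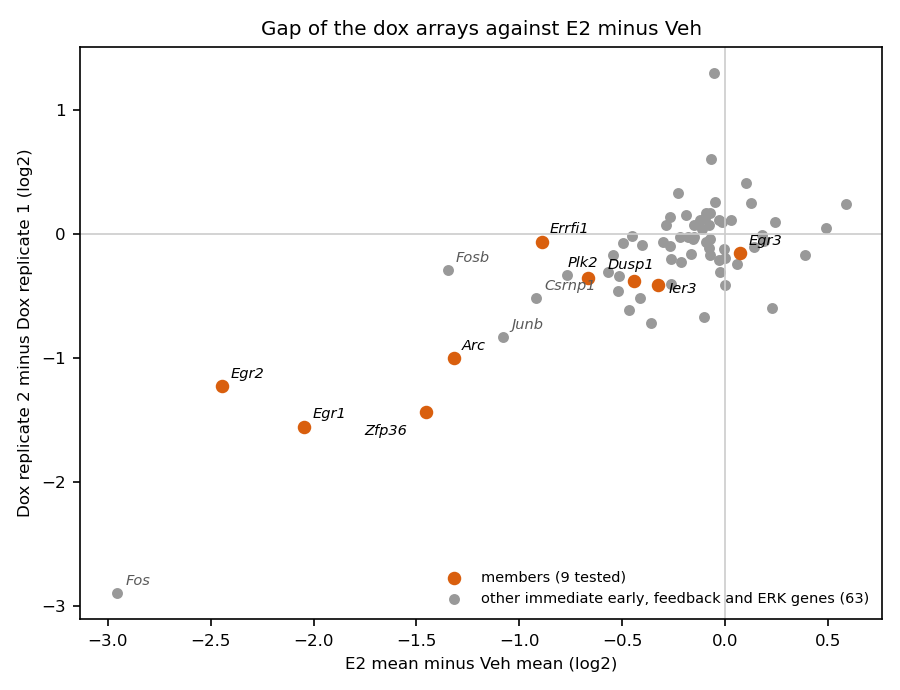
Dox replicate 2 minus dox replicate 1 (y axis, log2) against the E2 mean minus the vehicle mean (x axis, log2) for the 9 tested members and 63 tested genes of related lists. Fos, Egr1, Egr2, Zfp36 and Arc lie low on both axes, and Errfi1 and Fosb lie low on the x axis with a dox gap of -0.06 and -0.29.

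Dox plus E2 against E2 asked what dox did to these genes within slide 2, in the presence of E2, and its arrays took no part in the dox gap. The arrays of both its groups did serve in the choice, through the level on arrays with E2 against arrays without it. A choice of genes low on arrays with E2 favours like levels in both groups, so the p-values below are not free of it. None of the 9 tested members passed (limma, adjusted p under 0.05), and 1, Ier3, had an unadjusted p under 0.05. Over all genes 7 passed (0.0738%), and 591 did so unadjusted. Ier3 averaged 11.94 ± 0.03 in dox plus E2 and 11.62 ± 0.09 in E2 (SD, n = 2 and 3), a difference of 0.31 ± 0.09 (SE; 95% interval 0.12 to 0.50), 1.24-fold higher, that did not pass over all genes (limma adjusted p = 0.46). Both dox plus E2 arrays were above all 3 E2 arrays. Zfp36 was the other member without overlap, higher by 0.18 ± 0.21 (limma adjusted p = 0.93). These are 2 of 9 members (Ier3 and Zfp36), and 20.8% of all genes had dox plus E2 arrays outside the range of the E2 arrays.

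For the other 7 the intervals of the dox effect with E2 all held 0. Egr1 differed by -0.03 (95% interval -0.47 to 0.42), Egr2 by -0.19 (-0.69 to 0.31) and Errfi1 by -0.03 (-0.20 to 0.15). Dusp1 differed by 0.06 (-0.12 to 0.24) and Plk2 by 0.11 (-0.11 to 0.32). Arc and Egr3, both below background in dox plus E2, differed by -0.03 and -0.07. The limma adjusted p-values of these 7 ran from 0.919 to 0.996, and the median over the 9 members was -0.03, against 0.00 over all genes. The spread of Egr1 in this fit carries the dox arrays: in a fit of the 5 arrays of slide 2 alone, chosen after seeing the data, its SE was 0.08 in place of 0.22, with a difference of -0.03 (95% interval -0.19 to 0.13). In that fit Ier3 differed by 0.32 ± 0.08 (limma adjusted p = 0.36), and again none of the 7 members tested passed.

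Dox against vehicle, within slide 1, was shaped by the dox arrays that chose the genes, so its counts and values describe these arrays and test nothing about the members. The limma fit called 0 of the 9 members and 0.0316% of genes (3 in all), and at an unadjusted p under 0.05 it held 2 members and 642 genes. The values were -0.79 ± 0.24 for Egr1, -0.63 ± 0.23 for Zfp36, -0.49 ± 0.27 for Egr2 and -0.33 ± 0.29 for Arc. Of these dox replicate 1 alone would give -0.01, 0.09, 0.13 and 0.17, and dox replicate 2 alone -1.57, -1.35, -1.10 and -0.83, so the mean of the group describes neither array. For Errfi1 both dox arrays were below vehicle, at -0.12 and -0.18, with a mean of -0.15 ± 0.09. The others were -0.15 ± 0.10 for Ier3, -0.07 ± 0.10 for Dusp1, -0.01 ± 0.12 for Plk2 and 0.01 ± 0.30 for Egr3.

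The difference between the dox effect with E2 and that without it holds the arrays on which the genes were chosen. Its values and intervals are therefore shaped by that choice and do not answer whether E2 altered the dox effect. The limma fit called 0 of the 9 members and 0% of all genes, with 3 members and 652 genes at an unadjusted p under 0.05. The difference was 0.77 (95% interval 0.10 to 1.43) for Egr1, 0.81 (0.16 to 1.46) for Zfp36 and 0.47 (0.18 to 0.75) for Ier3. Without dox replicate 2 the values were -0.01, 0.09 and 0.26, and without dox replicate 1 they were 1.54, 1.53 and 0.67. Zfp36 and Ier3 were positive in both cases, and so was Errfi1, at 0.09 without dox replicate 2 and 0.15 without dox replicate 1. Nothing is read from these signs, since the dox arrays chose the genes. The differences were 0.30 for Egr2 and Arc, -0.32 and -0.20 without dox replicate 2, 0.91 and 0.80 without dox replicate 1, and 0.12 to 0.13 for Dusp1, Errfi1 and Plk2.

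**Figure D4:**
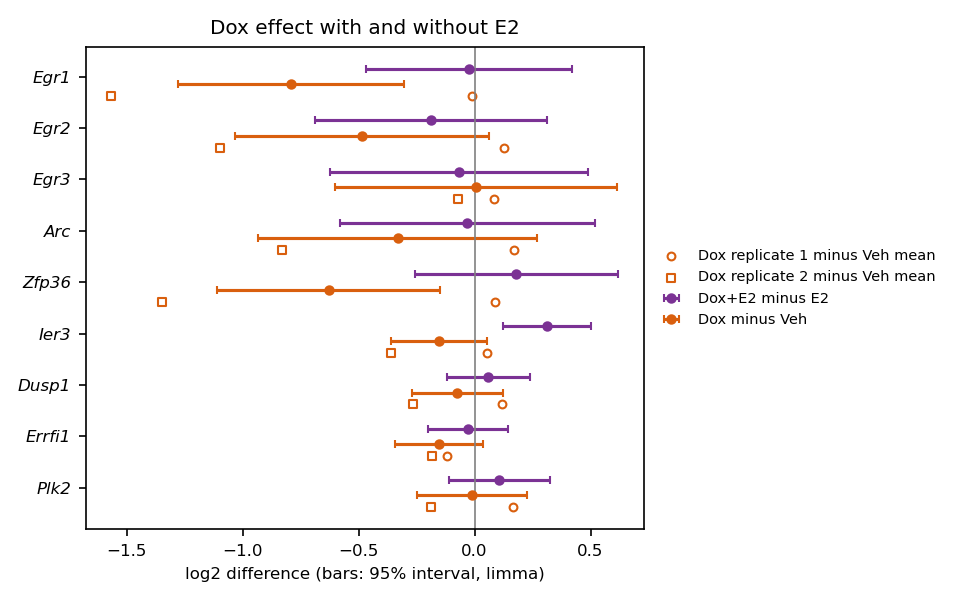
Dox effect (log2 difference, x axis) with E2 (dox plus E2 minus E2) and without it (dox minus vehicle) for the 9 tested genes, with 95% intervals from the limma fit; open symbols give each dox array minus the vehicle mean. For Egr1, Egr2, Zfp36 and Arc the open squares of dox replicate 2 lie between -1.57 and -0.83 and the open circles of replicate 1 lie between -0.01 and 0.17.

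E2 against vehicle compared slide 2 with slide 1 as well, and it took part in the choice of the genes. Of the 9 members 7 were called lower (Egr1, Egr2, Zfp36, Dusp1, Errfi1, Plk2 and Arc), against 0.832% of all genes, and nothing is read from this, since the contrast chose them. Without an intensity trend in the variance prior 0 of the 7 passed. Egr2 was 5.44-fold lower (6.13 ± 0.20 in E2 and 8.57 ± 0.01 in vehicle, SD, n = 3 and 2), Egr1 4.13-fold and Zfp36 2.73-fold lower. The Egr2 probe lay near background on the E2 arrays (detection p 0.004 to 0.019), so its fold depends on the processing. On the log2 scale Egr2 was at -2.44, against -1.99 with an offset of 50 and -1.36 with the authors' values. Arc was at -1.32 ± 0.27, a value set against a group in which 1 of 3 arrays was above background, and it passed the detection filter mainly through arrays without E2. Errfi1 was at -0.89 ± 0.08, Plk2 at -0.66 ± 0.11 and Dusp1 at -0.44 ± 0.09 on the log2 scale. Ier3 was at -0.32 ± 0.09 and Egr3 at 0.08 ± 0.27. The median over the members was -0.89, against -0.02 over all genes.

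Dox plus E2 against dox, across slides again, had 4 members called lower (Egr1, Egr2, Errfi1 and Plk2) against 0.211% of all genes. This is a contrast of arrays with and without E2, as used in the choice, so nothing is read from the count. Only 2 members passed with no detection filter (15 of all genes), with probes averaged per gene (19) or with the replicate block (12). Without the intensity trend 0 members and 6 of all genes passed. Egr2 was 4.42-fold lower and Errfi1 1.70-fold lower. The Egr2 value of -2.15 (log2) became -1.69 with an offset of 50 and -1.10 with the authors' values, as its probe was dim in dox plus E2. Zfp36 was at -0.64 ± 0.23, Dusp1 at -0.31 ± 0.10 and Ier3 at 0.14 ± 0.10. Without dox replicate 2 Egr1 was at -2.06 and Zfp36 at -1.36. Without dox replicate 1 Egr1 was at -0.51 and Zfp36 turned to 0.08. No such values are given for Arc, whose fall stands only as the bound above. In 5 of the 9 members, Egr1, Egr2, Errfi1, Plk2 and Arc, all 5 arrays with E2 lay below all 4 without, as 3.85% of all genes did, and this too follows from the choice.

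Slide 2 also differed from slide 1 in genes far from these pathways. Of 6 heart and slow muscle markers 4 were detected (Myl2, Actc1, Myl3 and Tnnc1). Their summed linear level was 365 to 420 in dox plus E2, 466 to 668 in E2, 1658 to 2536 in dox and 1659 to 1980 in vehicle. Myh7 and Tnni1 were not detected and are not in the sum. This sum was 1658 on dox replicate 2, at the level of the lower vehicle array, and 2536 on dox replicate 1, above both vehicle arrays. Of 4 adipocyte markers Lpl alone passed the detection filter. Its levels were 7.16 and 7.48 in dox plus E2 and 7.77, 7.94 and 7.42 in E2. On slide 1 they were 8.77 and 8.28 in dox replicates 1 and 2, and 8.74 and 8.30 in vehicle. The part of the muscle and Lpl levels in the E2 values was not tested.

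Other genes of the pathway were taken from lists of 92 genes, of which 63 were tested. In E2 against vehicle 12 were lower and 1 higher, and over all genes 79 were lower and 59 higher. Among 5 tested AP-1 subunits, the partners of Egr1 in the immediate early response, 4 were lower: Fos at -2.96 ± 0.40, Fosb at -1.35 ± 0.23, Junb at -1.08 ± 0.15 and Jun at -0.54 ± 0.10 on the log2 scale. Among 11 other immediate early transcription factors, Csrnp1 (fell by 0.92 ± 0.17) and Klf2 (fell by 0.41 ± 0.10) were lower. Of 12 tested feedback inhibitors of ERK and receptor signalling 1 was lower, the ERK phosphatase Dusp6, which fell by 0.46 ± 0.11. Of 7 Egr corepressors and serum response factors 1 was lower, Srf itself, which fell by 0.49 ± 0.09.

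Of 9 genes of RNA decay and growth arrest Zfp36l1, a relative of Zfp36, fell by 0.40 ± 0.09 and the stress gene Gadd45b rose by 0.49 ± 0.09. Of 7 secreted and cytoplasmic immediate early genes 3 were lower: Ccn1, a matrix protein (fell by 0.77 ± 0.10), the vasoactive peptide gene Edn1 (fell by 0.51 ± 0.11) and Phlda1 (fell by 0.52 ± 0.13). Of 12 tested genes of the EGF receptor and ERK cascade, which carries the signal to these targets, 0 passed in any of the 5 comparisons (limma), with a median of -0.06 in E2 against vehicle. In dox plus E2 against dox only Fosb of the 63 passed (fell by 1.39 ± 0.25). In dox plus E2 against E2 and in dox against vehicle 0 of 63 passed, with medians of -0.01 and -0.03.

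Some of these genes shared the gap between the dox arrays and others did not. Junb was 1.78-fold lower on dox replicate 2 than on dox replicate 1, Dusp6 1.53-fold, Csrnp1 1.43-fold and Phlda1 1.38-fold lower. On the log2 scale Phlda1 was at -0.46, inside the range of -0.49 to 0.47 given above. Also below that range were Dusp8 (-0.72), Mrtfb (-0.67), Bhlhe40 (-0.60) and Klf2 (-0.52). Spred2 (1.30) and Myc (0.60) went the other way and lay above it. Fosb was 1.22-fold, Jun 1.12-fold and Srf 1.06-fold lower, although all 3 were lower in E2 than in vehicle. Srf was at 10.08 and 10.16 in dox plus E2, 9.97, 10.12 and 10.08 in E2, 10.59 and 10.51 in dox and 10.49 and 10.61 in vehicle, so it separated the slides without parting the dox arrays. Nab2, the corepressor of the EGR proteins, was chosen after its values were seen. It went the other way, at 7.87 and 7.76 in dox plus E2, 8.22, 8.11 and 7.78 in E2, 7.49 and 7.74 in dox and 7.46 and 7.44 in vehicle, with E2 minus vehicle at 0.59 ± 0.15, which did not pass.

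The genes most like the members over the 9 arrays were found by their correlation with the mean z-score of the 9 tested members, among 4365 genes with a range of at least 0.50. Junb came first (r = 0.995), then Fos (0.968), Csrnp1 (0.962), the collagen IV chain Col4a2 (0.948), Phlda1 (0.942), Zc3h12a, an RNase of inflammatory mRNAs (0.941), Dusp6 (0.939) and Zfp638 (0.938). Among the members themselves Plk2 (0.970), Egr1 (0.968), Zfp36 (0.962), Egr2 (0.962), Dusp1 (0.948), Arc (0.915) and Errfi1 (0.887) followed the mean, of which they are part, while Ier3 (0.683) and Egr3 (0.113) followed it less. The arrays fall into 2 slides, which all these genes share, so the correlations describe the slides as much as the dox arrays.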

How the data were processed

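Total RNA of 9 samples was hybridised to Illumina mouse bead arrays. Groups came from sample titles and slides from sample descriptions in the labels. Per the file headers, the main deposited table gives every probe (25697) a bead signal, which is a linear intensity with no background subtraction, plus its detection p-value; the submitters' processing notes name GenomeStudio 2011.1. In another deposited table the authors scaled the intensity, and its values lie within 0.515% of a quantile normalization of the signals.

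The neqc function (limma 3.58.1, R 4.3.3) corrected the background, normalized by quantiles and took log2 after adding 16, an offset that shrinks changes of dim probes. The filter asked for detection p under 0.05 in 2 or more arrays, which 12912 probes met, and the brightest probe stood for each of 9490 genes. Symbols were updated through RefSeq: 20733 probes had a current symbol, 3872 were renamed and 1092 kept theirs. All 9 arrays were fitted in limma with a mean per group and an intensity trend, two-sided, with Benjamini-Hochberg adjustment over all genes at 0.05, and the fit was tested on simulated data. Alternatives were the authors' values, median scaling, other offsets and filters, probes averaged per gene, no trend, a replicate block, each array left out, and each slide alone (the last added after seeing the data).

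The members and gene lists were chosen with earlier results of these data known. All 10 members are named, with up to 4 called genes per list and comparison, the 8 genes most like the members, and Runx2, Gzmd, Sp7, Alpl and Fos. Plots used Python 3.11.15 and matplotlib 3.10.9.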

Additional observations from a re-analysis of the deposited data

How the results depend on the processing

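The call that 0 members passed in dox plus E2 against E2 held under every alternative run, leaving out each array included, and Ier3 stayed positive throughout (0.26 to 0.36, limma adjusted p 0.226 to 0.996). Without an intensity trend no gene passed in E2 against vehicle (0, against 138; 1229 unadjusted) and so 0 members, 6 genes and 0 members passed in dox plus E2 against dox (22 and 4), and 3 genes in dox plus E2 against E2 (7); the cause was not tested. With no detection filter 68 genes passed in E2 against vehicle, and with probes averaged per gene 91 did, with 1 gene in dox against vehicle (3); both left 2 members, Egr2 and Errfi1, in dox plus E2 against dox. Replicate numbers are shared between groups, and over all genes same-numbered arrays did not deviate together (correlations of -0.12 to -0.01). With so few arrays this cannot settle whether same-numbered samples belong together, and the main fit did not pair them. With the replicate block 69 genes passed in E2 against vehicle and 12 genes and 2 members in dox plus E2 against dox, and Arc lost its call in E2 against vehicle.

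Leaving out 1 array at a time gave 20 to 234 genes in E2 against vehicle (20 without either vehicle array, 59 and 58 without E2 replicates 1 and 2, 234 and 227 without dox replicates 1 and 2) with 5 to 8 members, 1 to 11 in dox against vehicle with 0 to 2 members, 0 to 4 for the difference with 0 to 3 members, 2 to 9 in dox plus E2 against E2, and 10 to 74 in dox plus E2 against dox with 2 to 7 members. The 11, the 4 and their members came without dox replicate 1, which gave 10 in dox plus E2 against dox, and the 74 and the 7 members without dox replicate 2. In dox against vehicle 1 gene passed without vehicle replicate 1 or dox replicate 2, and 5 without E2 replicate 1. Without dox plus E2 replicates 2 and 3, 3 and 2 genes passed in dox plus E2 against E2 and 14 and 10 in dox plus E2 against dox, which had 38 without E2 replicate 1. Without either dox array Ier3 passed in E2 against vehicle. Without vehicle replicate 1 Dusp1 and Plk2, and without vehicle replicate 2 Dusp1 and Arc, missed the threshold in E2 against vehicle. The dox plus E2 against E2 values near 0 changed sign: Egr1 was 0.0086 with median scaling and 0.11 with the replicate block, Arc 0.0274 with the block, and with 1 array left out the ranges were -0.0621 to 0.0116 for Egr1, -0.428 to 0.0503 for Egr2, -0.165 to 0.0341 for Egr3, -0.0746 to 0.195 for Dusp1, -0.135 to 0.0772 for Errfi1 and -0.113 to 0.0496 for Arc. The scaling alternatives left the median of all genes between -0.02 and 0.02. Levels of Arc and Egr3, and of Egr2 on the arrays with E2, lay near background, which limits their values.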
